A study of Homo sapiens with 34 samples.

Results

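Zinc finger genes named ZNF and a number were followed wherever they lie outside chromosome 19, which carries the densest array of them. The members were the protein-coding genes of RefSeq (GRCh38.p14, the same build as hg38) with such a symbol on chromosomes 1 to 18 and 20 to 22, with ZNF10 left out. There were 254 of them among 19970 protein-coding genes of the autosomes and the X chromosome, and another 250 on chromosome 19 served for comparison. A member was called clustered when another ZNF-numbered gene lay within 250 kb of it, which held for 125, and lone otherwise, which held for 129. Of the clustered members, 95 stood in 18 chains of at least 3 genes. ZNF511 and ZNF664 counted as clustered only through the read-through genes ZNF511-PRAP1 and ZNF664-RFLNA at the same place, which are members too. The members had a median length of 23841.5 bp, close to the 24190 bp of all protein-coding genes, and ranged from 966 to 960546 bp. Bodies of 60 members overlapped another protein-coding gene, and 3 members were read-through genes that join neighbouring genes, so a peak there can belong to more than 1 gene.

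The assay was CUT&Tag, in which an antibody tethers a transposase to chromatin. The antibody is called anti-H3K9me in the labels, with no degree of methylation. PC3 DM, a prostate cancer line, gave 16 libraries. Of these, 2 had the vector, 3 each had perturbation of ecSE1, ecSE2, ecSE6 and the combination ecSEcombo, and 2 had perturbation of ecSE7. COLO320 DM, a colorectal cancer line, gave 18 libraries: 3 each with the vector and with perturbation of ecSE1, ecSE2, ecSE3, ecSE4 and ecSEcombo. Below, a library with ecSE1 or another such name is one in which the sample title calls that element perturbed. All groups shared the transfection of 700 ng of sgRNA plasmid and the harvest of 50000 nuclei 3 days later, and both lines carry the oncogene MYC on extrachromosomal circles. No label ties the replicates to separate cultures. The p-values therefore cover library-to-library variation that could be purely technical. A histone mark does not measure expression, so the identity of the lines was not checked by marker genes.

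Most ZNF genes encode proteins with tandem C2H2 zinc fingers that bind DNA, and many also carry a KRAB domain. KRAB domains recruit the co-repressor TRIM28, which brings the histone methyltransferase SETDB1 and the trimethyl mark H3K9me3 to the sites bound, often transposable elements. The bodies of ZNF genes, above all the exon that encodes the finger array near the gene end, are themselves a known place of H3K9me3 in many human cell types. ZNF genes arose largely by tandem duplication, which is why many stand side by side.

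ZNF678 and ZNF670 had a peak in the gene in all 34 libraries, and ZNF786 was never marked. ZNF300 had the promoter that met a peak most often. The promoters of these 4 members are shown. Each is the 250 bases before the annotated start and adjoins the gene body, from RefSeq on GRCh38.p14, read 5′ to 3′ on the gene's strand, with every CG in capitals. CG reads the same on both strands.
ZNF300, chr5:150904981-150905230, minus strand: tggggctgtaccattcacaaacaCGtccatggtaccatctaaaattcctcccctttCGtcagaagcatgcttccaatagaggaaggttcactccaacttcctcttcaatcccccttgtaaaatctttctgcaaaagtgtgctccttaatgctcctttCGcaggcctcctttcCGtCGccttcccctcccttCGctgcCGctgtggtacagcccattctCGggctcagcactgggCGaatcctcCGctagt
ZNF678, chr1:227563306-227563555, plus strand: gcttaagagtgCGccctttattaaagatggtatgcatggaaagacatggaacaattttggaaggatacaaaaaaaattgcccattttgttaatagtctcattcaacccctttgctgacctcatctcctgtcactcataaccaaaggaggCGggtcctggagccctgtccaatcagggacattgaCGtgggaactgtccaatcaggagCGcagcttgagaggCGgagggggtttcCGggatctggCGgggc
ZNF670, chr1:247078812-247079061, minus strand: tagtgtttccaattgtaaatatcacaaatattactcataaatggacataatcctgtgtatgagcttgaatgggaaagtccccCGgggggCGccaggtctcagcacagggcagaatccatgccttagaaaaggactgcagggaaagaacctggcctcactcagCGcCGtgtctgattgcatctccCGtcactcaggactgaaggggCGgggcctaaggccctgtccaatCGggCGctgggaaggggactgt
ZNF786, chr7:149090719-149090968, minus strand: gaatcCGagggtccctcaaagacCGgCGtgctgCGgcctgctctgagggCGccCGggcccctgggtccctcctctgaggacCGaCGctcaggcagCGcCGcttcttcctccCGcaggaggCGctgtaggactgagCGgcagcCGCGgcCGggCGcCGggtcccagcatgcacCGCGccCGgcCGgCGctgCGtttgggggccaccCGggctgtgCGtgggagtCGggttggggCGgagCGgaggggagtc

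The promoter stretch of ZNF300 held 10 CGs and met a peak in 9 of 34 libraries, while its gene region had one in 30. The stretch of ZNF678 held 7 CGs and met a peak in 0 libraries, although the gene had one in all 34. ZNF670 had 8 CGs, a peak at the promoter in 2 libraries and in the gene in 34. ZNF786 had 29 CGs and no peak in its promoter or gene in any library. The 250 bases lie within the 2 kb counted with each gene, so a never-marked gene can have no promoter peak. Of the 208 members with an entry in the promoter table, 170 had the entry next to the gene body and 38 at a start within it. Among the 208, 16 had a peak in the 250 bases in at least 1 library, 7.69% against 6.26% of 15811 promoters of all protein-coding genes, and 0 had one in 17 or more libraries. Of the 40 entries of members marked in at least 33 libraries, 5 (12.5%) had a peak in at least 1 library. The median was 14 CGs in the 40 entries of members marked in at least 33 libraries, 26 in the 17 entries of members never marked, and 17 over all promoters. At least 10 CGs stood in 86.1% of members' promoters and in 68.6% of all promoters.

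A member was counted as marked in a library when at least 1 bp of a peak lay in the gene or the 2 kb on each side of it. Members were marked far more often than other genes. In COLO320 DM, 45.1% ± 6.81 of members (SD, n = 18 libraries) had a peak, from 35.0 to 67.7%, against 16.6% ± 7.93 of all protein-coding genes. In PC3 DM, 47.6% ± 7.94 of members (SD, n = 16) had one, from 31.5 to 64.6%, against 25.2% ± 8.95 of all genes. The members' share was above that of all genes in 18 of 18 and 16 of 16 libraries, by 28.5 ± 2.57 and 22.4 ± 3.36 points. ZNF genes of chromosome 19 were above the members in the same 34 libraries, at 57.2% ± 9.83 in COLO320 DM and 63.7% ± 10.4 in PC3 DM.

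**Figure D1:**
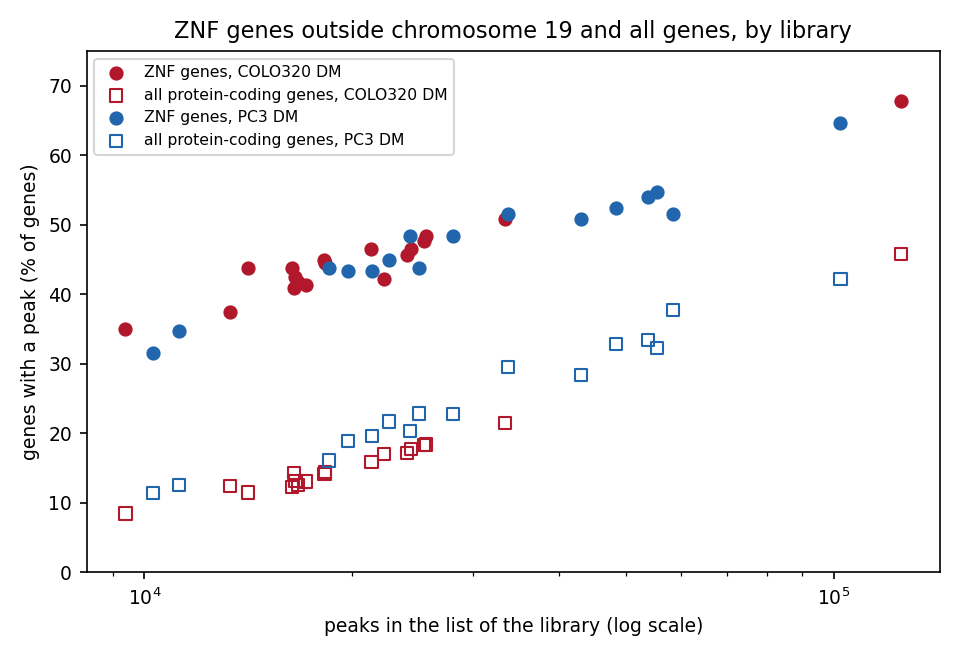
Percent of genes with a peak in the gene and 2 kb on each side (vertical axis) against the number of peaks in the library's list (horizontal axis, log scale), with 1 filled circle (ZNF genes outside chromosome 19) and 1 open square (all protein-coding genes) per library, red for COLO320 DM and blue for PC3 DM. The circles lie between 31.5 and 67.7%, each above its library's square, and both climb with list length.

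The number of peaks per list ranged from 9385 to 125213 and moved with these shares. The highest member share, 67.7%, was in COLO320 DM ecSE1 replicate 2, the longest list, where 45.8% of all genes also had a peak. Lists held 25454 ± 25518 peaks in COLO320 DM (SD, n = 18) and 36007 ± 23609 in PC3 DM (SD, n = 16). Peaks were wider in COLO320 DM, with a median width of 344 ± 59.8 bp against 264 ± 65.0 bp. Of all 561 pairs of libraries, none shared more than 26.8% of their marked 1 kb bins. Sequencing depth is unknown, since no read totals entered the calculation, and a gene without a peak is one whose signal did not pass the authors' threshold in that list.

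By bases, 1.11% ± 0.314 of the members' territory in COLO320 DM (SD, n = 18) and 0.705% ± 0.251 in PC3 DM (SD, n = 16) lay under peaks. That was 5.59 ± 1.21 and 2.90 ± 0.959 times the covered share of all protein-coding genes. Members held 1.54% of all peaks in COLO320 DM and 0.944% in PC3 DM, but 3.68% and 3.24% of the best 1000 peaks of a list. They were over-represented among those best peaks in 18 of 18 and 16 of 16 libraries. Their peaks had a lower median fold, by the authors' own value for each peak, at 3.90 against 5.51 for all peaks in COLO320 DM and 4.53 against 5.31 in PC3 DM.

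Gene length sets how easily a gene meets a peak, so the members were also compared with genes of like length. Below 10 kb, 17.2% of 33 members were marked in COLO320 DM against 2.61% of all genes, and 19.3% against 4.77% in PC3 DM. From 10 to 30 kb, 42.4% of 117 members were marked against 7.81%, and 39.9% against 13.2%. From 30 to 100 kb, 57.2% of 73 members were marked against 18.1%, and 61.0% against 31.1%. In these 3 classes members were above all genes in 34 of 34 libraries. At 100 kb or more, 56.3% of 31 members were marked against 51.9% of all genes in COLO320 DM and 75.4% against 69.4% in PC3 DM. Within libraries the members differed from all genes there by 4.34 ± 5.38 points in COLO320 DM (SD, n = 18), higher in 15 of 18, and by 5.98 ± 5.72 points in PC3 DM (SD, n = 16), higher in 13 of 16. In the shorter classes this difference ran from 14.5 to 39.1 points.

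Clustered members were marked more often than lone ones in COLO320 DM, where 54.4% ± 5.18 of clustered and 36.0% ± 8.71 of lone members had a peak (SD, n = 18). Clustered members were higher in 18 of 18 libraries, by 18.4 ± 4.63 points. In PC3 DM the shares were 50.9% ± 7.37 and 44.4% ± 9.11 (SD, n = 16), with clustered members higher in 14 of 16 libraries by 6.52 ± 4.81 points. Lone members were longer, with a median of 30042 bp against 20523 bp. Per base the contrast was larger, and the part of gene length in this was not tested. Clustered members had 2.60% ± 0.659 of their bases under peaks in COLO320 DM and lone members 0.522% ± 0.201. In PC3 DM the values were 1.32% ± 0.50 and 0.462% ± 0.166. The ratio was 5.17 ± 0.710 in COLO320 DM and 2.91 ± 0.582 in PC3 DM, above 1 in each of the 34 libraries.

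The length class from 30 to 100 kb held the widest gap. There 80.0% ± 4.36 of 37 clustered members had a peak in COLO320 DM against 33.8% ± 10.9 of 36 lone ones, and in PC3 DM 76.5% ± 9.50 against 44.97% ± 14.7. From 10 to 30 kb the clustered members were also higher in all 34 libraries, at 49.1% against 33.3% in COLO320 DM and 44.5% against 33.6% in PC3 DM. Below 10 kb the 19 clustered and 14 lone members had 19.0% and 14.7% in COLO320 DM and 19.4% and 19.2% in PC3 DM. The difference within libraries was 4.32 ± 8.33 and 0.211 ± 6.65 points, smaller than its own SD. Only 2 clustered members were 100 kb or longer.

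Recurrence over the 34 libraries divided the members. A peak in at least 33 libraries was found for 44 members, 17.3% of them, where 2.40% of all genes and 14% of ZNF genes on chromosome 19 reached that level. In 34 of 34 libraries a peak was found for 31 members, against 1.48% of all genes. No peak in any library was found for 25 members, 9.84%, against 20.3% of all genes. The median member was marked in 12.5 libraries and the median gene in 3. Clustered members had a median of 21 libraries and lone members of 9. Clustered members held 31 of those marked in at least 33 libraries and also 15 of those never marked, so the same arrangement of neighbours occurred at both ends.

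**Figure D2:**
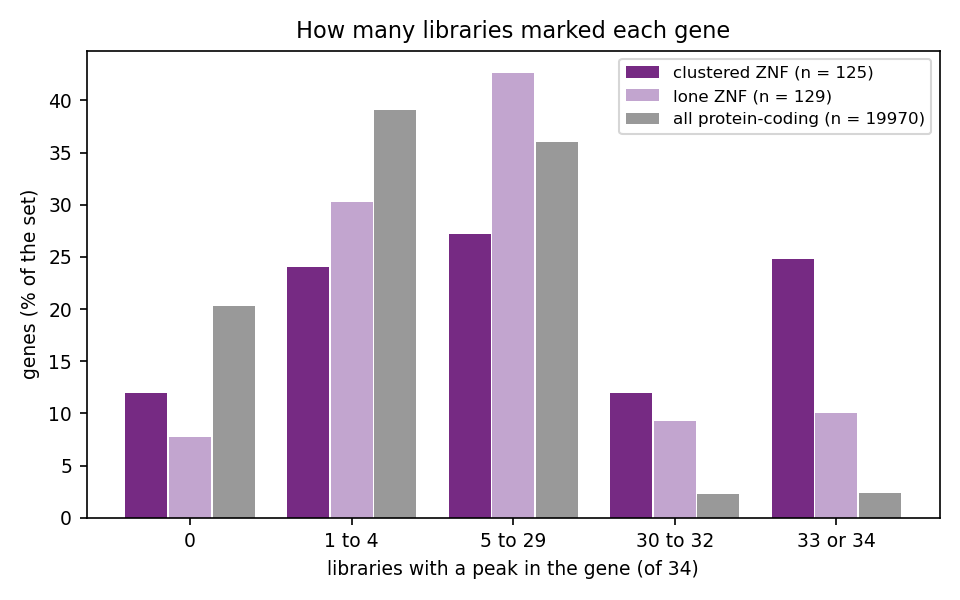
Percent of the genes of a set (vertical axis, bars) by the number of libraries with a peak in the gene, in classes from 0 to 33 or 34 (horizontal axis), for clustered and lone ZNF genes outside chromosome 19 and all protein-coding genes. In the class of 33 or 34 libraries the bars stand at 24.8% of clustered members, 10.1% of lone members and 2.40% of all genes.

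ZNF678 on chromosome 1 (227563556-227679669) led the recurrent members by bases under peaks. In COLO320 DM it had 3669, 7336 and 10908 bp under peaks in the lowest, median and highest library, and in PC3 DM 3066, 5290.5 and 9983 bp. The ranges overlap, and no library was near 0. A single site at 227651334-227651712, 28146 bp before the gene end, lay under a peak in 33 of 34 libraries. It is a lone member, as is ZNF483 on chromosome 9, which had 4086 ± 1105 bp under peaks in COLO320 DM (SD, n = 18) and 1708 ± 869 bp in PC3 DM (SD, n = 16).

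On chromosome 4, the neighbours ZNF721, ZNF718 and ZNF141 were marked in all 34 libraries. ZNF721 had 4218 ± 814 bp under peaks in COLO320 DM and 1684 ± 1090 bp in PC3 DM. ZNF718 had 4162 ± 951 and 1531 ± 704 bp. ZNF141 had 3611 ± 1029 and 1583 ± 777 bp, with 1 site in 33 of 34 libraries. ZNF892 on chromosome 2 had 3983 ± 950 bp in COLO320 DM and 1097 ± 565 bp in PC3 DM. These genes had a higher mean of bases under peaks in COLO320 DM, whose lists were shorter and whose peaks were wider than those of PC3 DM. The part of peak width in this was not tested. The other members among the 12 with the most covered bases were ZNF84 and ZNF605 on chromosome 12, ZNF782 on chromosome 9, ZNF184 on chromosome 6, and the chromosome 1 neighbours ZNF695 and ZNF670. Their means ran from 2336 to 3290 bp in COLO320 DM and from 911 to 1815 bp in PC3 DM.

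Recurrent members were mostly marked at the same place. The most widely shared site of the 44 members lay under a peak in a median of 27.5 libraries, and in 25 or more for 28 of them. For the 479 genes of all kinds marked as often, the median was 20 libraries, and 32.6% had a site shared by 25 or more. Those genes were longer, with a median of 367708 bp against 39755 bp. Of the 35 ZNF genes of chromosome 19 marked as often, 62.9% had a site shared by 25 or more, against 63.6% of the members, and the median was 26 libraries. Marking at the same place was therefore not particular to the members. ZNF195 on chromosome 11 was the member whose site was shared by 34 of 34 libraries, and ZNF32, ZNF502, ZNF141, ZNF670 and ZNF678 each had a site in 33.

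The 5 longest members, all lone, were ZNF385D, ZNF804B, ZNF407, ZNF385B and ZNF423. ZNF385D and ZNF804B were in the group marked in at least 33 libraries, and ZNF407, with 18 libraries, ZNF385B, with 32, and ZNF423, with 28, were not. ZNF385D on chromosome 3 (960546 bp) had a peak in 33 libraries, yet no site was shared by more than 3. ZNF804B on chromosome 7 (578829 bp) had a peak in 34 libraries with a site in 12. ZNF385B on chromosome 2 (419631 bp) had one in all 16 PC3 DM libraries and in 16 of 18 of COLO320 DM, with a site in 13. ZNF423 on chromosome 16 (371756 bp) had one in 17 of 18 and 11 of 16 libraries with a site in 12.

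Members never marked lay on 8 chromosomes. They were 9 of the 30 members on chromosome 16, 5 of 18 on chromosome 8, 4 of 35 on chromosome 7 and 3 of 21 on chromosome 1, with 1 each on chromosomes 10, 11, 15 and 17. In symbol order the first were ZNF212, ZNF213, ZNF408, ZNF467 and ZNF488. ZNF705B, ZNF705D and ZNF705G, chosen here after their values were seen, are near-identical copies on chromosome 8, where reads may not be placed uniquely, so their lack of peaks is uncertain.

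The chains of neighbouring genes differed widely. The largest, 10 members from ZNF722 to ZNF117 on chromosome 7 (63998849-64991036), had members marked in 12 to 33 libraries with a median of 31.5. On average 87.8% ± 7.32 of its members had a peak in COLO320 DM (SD, n = 18) and 74.4% ± 16.7 in PC3 DM (SD, n = 16). ZNF680 and ZNF117 were marked in 33 libraries and ZNF736 in 32. The next, 9 members from ZNF48 to ZNF629 on chromosome 16 (30378312-30787205), had members marked in 0 to 2 libraries, and 4 of them, ZNF768 included, in none. Its share was 0.617% ± 2.62 in COLO320 DM and 5.56% ± 8.11 in PC3 DM.

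A pair of chains with 8 members each stood at opposite ends. From ZNF445 to ZNF501 on chromosome 3 (44431705-44737083), 83.3% ± 14.9 of members were marked in COLO320 DM and 81.3% ± 10.2 in PC3 DM, with ZNF502 marked in 34 libraries and ZNF445 in 13. From ZNF786 to ZNF746 on chromosome 7 (149069641-149497809), 1.39% ± 5.89 and 8.59% ± 14.2 of members were marked, in 0 to 5 libraries each, with ZNF398 highest and ZNF786 at 0. The 5 members from ZNF595 to ZNF721 on chromosome 4 (53321-499156) were all recurrent, with 100% marked in COLO320 DM and 98.8% ± 5.00 in PC3 DM. The 6 members from ZNF605 to ZNF268, a chain that also holds ZNF10, on chromosome 12 (132918306-133214832) had the highest covered share of the 18 chains in COLO320 DM, with 7.19% ± 1.70 of the bases from its first to its last gene under peaks, against 2.03% ± 0.884 in PC3 DM.

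**Figure D3:**
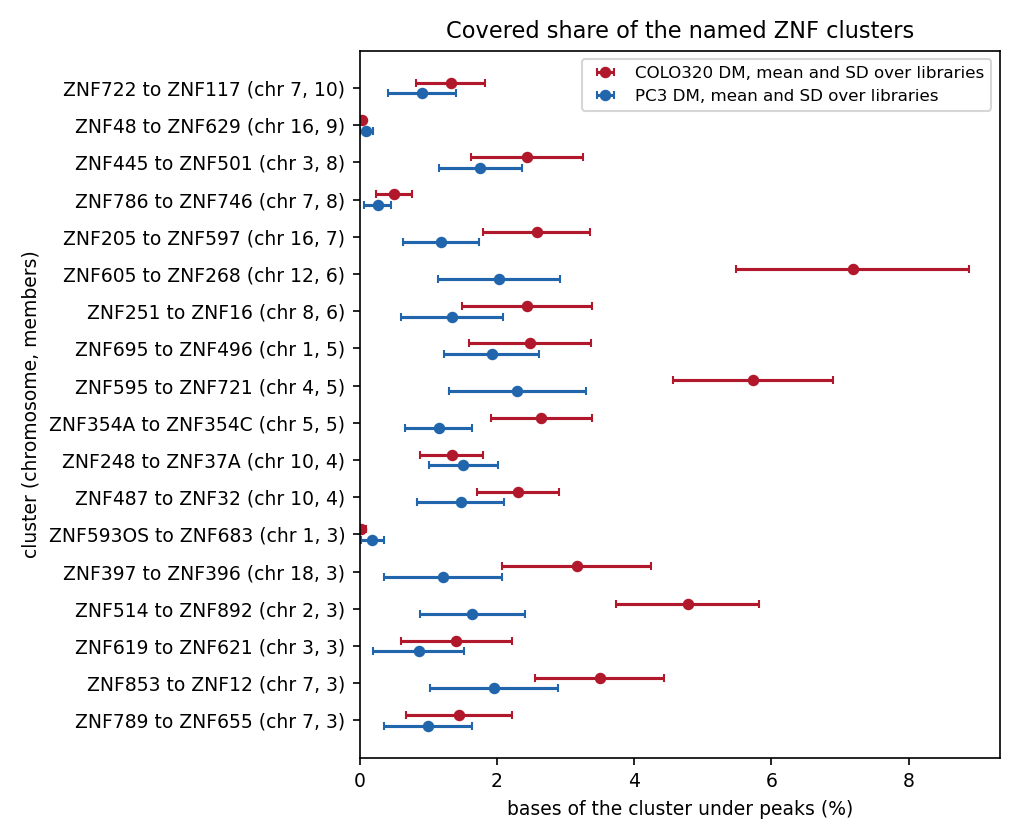
The 18 chains of at least 3 neighbouring ZNF genes (vertical axis, with chromosome and number of members) and the percent of bases under peaks in each chain from its first to its last gene (horizontal axis), as means with SD over the 18 COLO320 DM (red) and 16 PC3 DM (blue) libraries. The chains ZNF605 to ZNF268 and ZNF595 to ZNF721 stand highest in COLO320 DM at 7.19 and 5.74%, and ZNF48 to ZNF629 is near 0 in both lines at 0.0289 and 0.0930%.

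Within genes, peaks lay toward the gene end. For the 198 members with a known strand and at least 5 kb, each gene was split into 5 equal parts from start to end, and peak summits were counted. In COLO320 DM, 8.91% ± 1.93 of summits (SD, n = 18) fell in the first part and 28.5% ± 2.61 in the last. In PC3 DM the first part held 11.9% ± 2.61 (SD, n = 16) and the last 26.8% ± 3.24. Over all protein-coding genes the first part held 19.7% and 19.8% and the last 18.2% and 18.7%, so summits were nearly even there. The trait was not particular to the members: in ZNF genes of chromosome 19 the last part held 39.7% and 34.6%. In genes with other zinc finger family names, described below, it held 36.7% and 30.7%. The last part was the members' highest in 13 of 18 and 10 of 16 libraries, and for lone members in 8 and 4. Neither line's range for the members overlapped that of all genes in the first or the last part: the members' last part ran from 22.9 to 33.8% in COLO320 DM, and that of all genes from 17.6 to 19.1%.

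**Figure D4:**
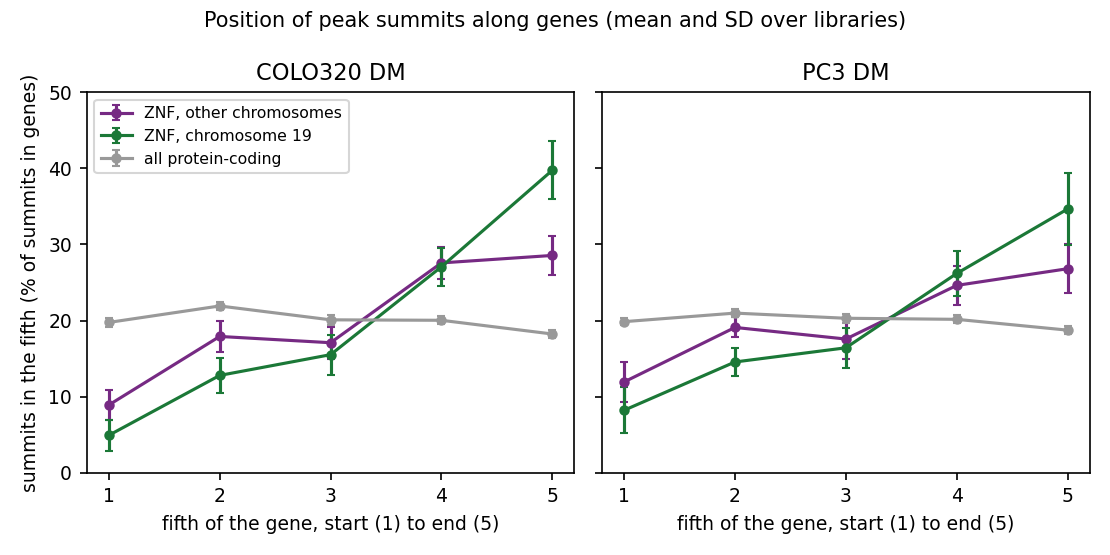
Percent of peak summits (vertical axis) in each of 5 equal parts of the gene from start to end (horizontal axis), as means with SD over libraries, for ZNF genes on other chromosomes, ZNF genes of chromosome 19 and all protein-coding genes. Members rise from 8.91 to 28.5% in COLO320 DM and from 11.9 to 26.8% in PC3 DM, while all genes stay between 18.2 and 21.9%.

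COLO320 DM and PC3 DM were compared gene by gene with Fisher's exact test on the number of marked libraries, adjusted over the 10064 genes that had a peak in at least 3 libraries and lacked one in at least 3. A gene was called at an adjusted p under 0.05. Of all genes, 7.00% were called, 1.25% marked more often in COLO320 DM and 5.74% more often in PC3 DM. Of the members, 129 could be tested, since 70 had fewer than 3 libraries with a peak and 55 fewer than 3 without. Called members numbered 8, which is 6.20% of those tested and close to the background: 3 were marked more often in COLO320 DM and 5 in PC3 DM. Of 176 ZNF genes of chromosome 19 tested, 1 was called toward COLO320 DM and 6 toward PC3 DM. The median difference was -5.56 points in the members tested and -16.3 points in all genes, COLO320 DM minus PC3 DM. In clustered members it was 11.8 points and in lone members -9.03.

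ZNF827 on chromosome 4 (145757627-145938823), a lone gene of 181197 bp whose body overlaps C4orf51, was marked in 15 of 16 libraries of PC3 DM and 1 of 18 of COLO320 DM. The vector libraries of PC3 DM had 373 and 1073 bp under peaks, and those with ecSE1 had 1002, 260 and 442 bp. With ecSE2 the values were 1420, 1111 and 359 bp, and with ecSE6 from 236 to 309 bp. With ecSE7 they were 410 and 0 bp, and with ecSEcombo 736, 470 and 222 bp. In COLO320 DM 17 libraries were at 0 bp and ecSE1 replicate 2, the longest list, had 567 bp. The lines thus overlapped only through that library and the 1 PC3 DM library at 0. The difference was -88.2 points (adjusted p = 0.000112, Fisher's exact test with Benjamini-Hochberg adjustment).

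ZNF521 on chromosome 18 (25061924-25352166), a lone gene of 290243 bp that encodes a transcriptional co-factor with many zinc fingers, was marked in 2 of 18 and 13 of 16 libraries. Bases under peaks in PC3 DM had a lowest, median and highest of 0, 581.5 and 1293 bp, with 3 libraries at 0. In COLO320 DM 16 libraries were at 0 bp, a vector library had 588 bp and ecSE1 replicate 2 had 905 bp. The difference was -70.1 points (adjusted p = 0.00592, Fisher's exact test). Among the vector libraries alone, ZNF521 was marked in 1 of 3 of COLO320 DM and 1 of 2 of PC3 DM.

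The other members marked more often in PC3 DM were also lone and long. ZNF407 (467802 bp, chromosome 18) was marked in 4 of 18 and 14 of 16 libraries (adjusted p = 0.00949, Fisher's exact test), with medians of 0 and 920 bp under peaks. ZNF654 (85406 bp, chromosome 3, overlapping CGGBP1) was marked in 3 and 12 libraries (adjusted p = 0.0330, Fisher's exact test). ZNF362 (173198 bp, chromosome 1, overlapping AZIN2 and TRIM62) was marked in 6 and 14 libraries (adjusted p = 0.0364, Fisher's exact test), and its call was lost without 26 of the 34 libraries in turn. Among vector libraries of COLO320 DM and PC3 DM, ZNF407 was marked in 1 of 3 and 1 of 2. ZNF654 was marked there in 0 of 3 and 1 of 2, and ZNF362 in 0 of 3 and 2 of 2. In these 5 genes the most shared site lay under a peak in only 2 to 4 of 16 PC3 DM libraries, so presence came from peaks at different places. Among all 578 genes called in that direction the median was likewise 2 libraries. Those 578 genes were long too, with a median of 117792 bp, so length was not particular to the members.

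The members marked more often in COLO320 DM were clustered, short and marked at a shared place. ZNF879 on chromosome 5 (179023804-179035064), a gene of 11261 bp, was marked in 18 of 18 and 5 of 16 libraries, a difference of 68.8 points (adjusted p = 0.00226, Fisher's exact test). Bases under peaks had a lowest, median and highest of 243, 936.5 and 1380 bp in COLO320 DM, and 0, 0 and 587 bp in PC3 DM. Both PC3 DM vector libraries were among the 5 that had a peak, at 305 and 323 bp. ZNF735 on chromosome 7 (64207203-64220290) was marked in 16 and 5 libraries (adjusted p = 0.0277, Fisher's exact test), with medians of 353 and 0 bp. ZNF239 on chromosome 10 (43556344-43574616) was marked in 15 and 4 libraries (adjusted p = 0.0330, Fisher's exact test), with medians of 361 and 0 bp. Among vector libraries of COLO320 DM and PC3 DM, ZNF879 and ZNF239 were each marked in 3 of 3 and 2 of 2. ZNF735 was marked there in 2 of 3 and 1 of 2. The most shared site lay 2343 bp before the gene end in ZNF879 (13 of 18 libraries), 395 bp in ZNF735 (10) and 713 bp in ZNF239 (13). Among all 126 genes called in that direction the median length was 42744 bp, against 13088 bp for these 3 members. The most shared site of the 126 genes lay under a peak in a median of likewise 13 libraries, and 71.4% had a site in 10 or more. A shared place was thus not particular to the members. The next by size, ZNF621 (16 and 7 libraries, adjusted p = 0.0815) and ZNF263 (17 and 8, adjusted p = 0.0600), did not pass Fisher's exact test.

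**Figure D5:**
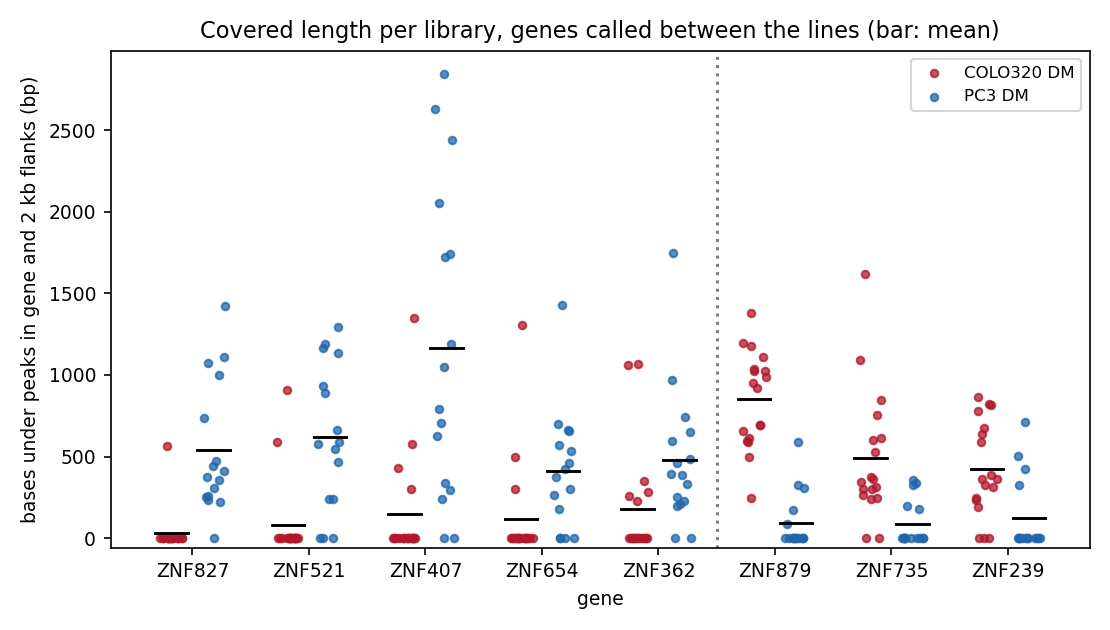
Base pairs under peaks in the gene and 2 kb on each side (vertical axis) in each library of COLO320 DM and PC3 DM, for the 8 members called between the lines. ZNF827, ZNF521, ZNF407, ZNF654 and ZNF362 are mostly at 0 in COLO320 DM (red), and ZNF879, ZNF735 and ZNF239 mostly at 0 in PC3 DM (blue), where the black bars mark means.

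This split by direction depended on how a peak was counted. With an overlap of at least 500 bp, 30 members were marked more often in COLO320 DM and 1 in PC3 DM, of 108 tested, beside 21.6% and 1.37% of all 2256 genes tested, and ZNF879 was the one call shared with the 8. With every list shortened to 9385 peaks, 13 members were called toward COLO320 DM and 5 toward PC3 DM, of 107 tested, beside 6.84% and 6.47% of 4711 genes, and 6 of the 8 were among them. ZNF827 was then marked in 0 of 18 COLO320 DM and only 7 of 16 PC3 DM libraries, and ZNF521 in 0 and 8. Without COLO320 DM ecSE1 replicate 2, the members called numbered 7 and 11 of 123 tested, beside 1.79% and 13.9% of 9486 genes, and included all 8. Of peaks, 22.0% ± 9.08 were 500 bp or wider in COLO320 DM (SD, n = 18) and 6.73% ± 6.50 in PC3 DM (SD, n = 16). The part of peak width and list length in the calls was not tested.

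Likeness was measured by the phi coefficient of presence over the 34 libraries, among 197 members. The patterns nearest to ZNF827 were ZNF407 (0.77), ZNF521 (0.71) and ZNF654 (0.71), and those nearest to ZNF521 were ZNF827 (0.71), ZNF638 (0.65) and ZNF654 (0.64). These coefficients describe the libraries, which share their line and their list length.

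Perturbed libraries were compared with the vector in each line. In COLO320 DM the members' share was 40.8% ± 5.71 with the vector (SD, n = 3) and 45.9% ± 6.86 in perturbed libraries (SD, n = 15), beside 13.5% ± 4.69 and 17.2% ± 8.41 of all genes. In PC3 DM it was 49.2% ± 7.79 with the vector (SD, n = 2) and 47.4% ± 8.23 in perturbed libraries (SD, n = 14), beside 24.2% ± 11.4 and 25.3% ± 9.07. Both differences were smaller than the spread between libraries. By group, the shares in COLO320 DM were 51.2% ± 15.3 with ecSE1, 45.7% ± 4.47 with ecSE2, 44.0% ± 2.02 with ecSE3, 46.3% ± 1.38 with ecSE4 and 42.4% ± 1.20 with ecSEcombo (SD, n = 3 each). In PC3 DM they were 45.7% ± 12.3 with ecSE1, 49.6% ± 4.11 with ecSE2, 45.8% ± 4.32 with ecSE6 and 53.8% ± 9.32 with ecSEcombo (SD, n = 3 each), and 39.2% ± 6.4 with ecSE7 (SD, n = 2).

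No gene of any kind was called between perturbed and vector libraries by Fisher's exact test. In COLO320 DM 0% of 4621 genes were called and 1.06% had an unadjusted p under 0.05, and of 54 members tested 0 were called and 2 had such a p. In PC3 DM 0% of 7811 genes were called and 0.294% had an unadjusted p under 0.05, and of 98 members tested 0 had either. The smallest p that 15 against 3 libraries allow is 0.00123, and 14 against 2 allow 0.00833. At least 114 and 1302 genes would have had to reach it for any to be called, so single genes could not be detected.

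The largest differences in COLO320 DM were in ZNF33A, marked in 12 of 15 perturbed and 0 of 3 vector libraries (unadjusted p = 0.0245, adjusted p = 1.0, Fisher's exact test), and ZNF669, in 11 of 15 and 0 of 3 (unadjusted p = 0.0429, adjusted p = 1.0). ZNF35 was marked in 9 of 15 and 0 of 3, and ZNF469 in 14 of 15 and 1 of 3. In the other direction, ZNF232 was marked in 3 of 15 and 2 of 3 libraries, ZNF684 in 5 of 15 and 2 of 3, and ZNF740 in 0 of 15 and 1 of 3. In PC3 DM, ZNF516, ZNF366 and ZNF618 were each marked in 8 of 14 perturbed and 0 of 2 vector libraries. ZNF239 was marked in 2 of 14 and 2 of 2, and ZNF710 and ZNF879 each in 3 of 14 and 2 of 2. The genes marked more often in perturbed COLO320 DM libraries showed no such gain in PC3 DM. There ZNF33A and ZNF35 were each marked in 12 of 14 and 2 of 2, ZNF669 in 4 of 14 and 2 of 2, and ZNF469 in 14 of 14 and 2 of 2. None of these differences passed the test.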

How the data were processed

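The members, clusters, lists and tests were chosen with earlier results of these data known. The submitters' processing notes name hg38 and, with no role or order, MACS2 2.2.7.1, bedtools, SAMtools, Bowtie2 2.3.5 and Trim Galore 0.6.6. Each deposited list is one library's peaks. The names of the deposited lists state an FDR of 0.001. Control libraries and duplicate handling are not given in the sources used here. The score is the authors' display value for each peak and was not used. The deposited fold, a ratio over the background that MACS2 estimates nearby, and the deposited −log10 q served only to describe, rank and filter peaks within a list. The deposited −log10 p was not used.

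Peaks were counted per gene with 2 kb on each side, from 1 bp of overlap, on autosomes and X. Presence per library entered two-sided Fisher's exact tests. Benjamini-Hochberg adjustment, at 0.05, covered every gene marked in at least 3 libraries and unmarked in at least 3. Shares are described by mean and SD over libraries, with no test. Groups and replicate numbers came from sample titles. The gene table gives no exons, and strand came from the promoter table for 208 members. Alternatives were lists of equal length (9385 peaks), −log10 q of 5 or more, overlap of 500 bp, no flanks, other gaps, a replicate block, each replicate left out, perturbed or vector libraries alone, and no 2 lists above 100000 peaks. That last one was added for clustered and covered shares after seeing the data.

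Named genes were ZNF827 and ZNF521, members called between lines (the 5 largest differences where fewer than 5 were called), up to 12 recurrent members by covered bases, 3 per direction and line against the vector, the 5 longest, up to 3 per large chain, the 3 most alike in pattern, and 5 never-marked in symbol order. Other genes named were chosen after their values were seen. On data simulated for 10064 genes of the comparison between lines, the test called 100% of 100 complete differences, 50% of 100 of size 60 points, and 30 of 9864 genes that followed list length alone. A complete difference always has the smallest possible p, so the 100% was fixed in advance. Software was scipy 1.17.1, pandas 2.3.3 and numpy 2.4.6 under Python 3.11.15, with figures from matplotlib 3.10.9.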

Additional observations from a re-analysis of the deposited data

How the results depend on the processing

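None of the 8 members called between lines was called in the other direction, but the balance of directions turned: 3 toward COLO320 DM and 5 toward PC3 DM became 30 and 1 at 500 bp overlap and 13 and 5 with equal lists. The order of the lines' member shares turned too, from 45.1% in COLO320 DM and 47.6% in PC3 DM, under both settings. The count of 8 was 18 with lists of equal length, 31 at 500 bp overlap, 14 without the 2 lists over 100000 peaks and 5 when genes with at least 1 library with and 1 without a peak were tested. Toward COLO320 DM it was 7 at −log10 q of at least 5 and 6 without the 2 long lists. Toward PC3 DM it was 8 without the long lists, 3 with the wider test and 3 with perturbed libraries only. All genes called moved from 704 to 464 at −log10 q of at least 5, 416 with the wider test and 1136 without the long lists. The member share in COLO320 DM was 36.5% with equal lists and 26.8% at 500 bp, and in PC3 DM 38.8% at −log10 q of at least 5, 33.0% with equal lists and 13.4% at 500 bp. Clustered members had 48.8% and 37.2% in COLO320 DM and 39.3% and 17.5% in PC3 DM with equal lists and 500 bp. Lone members had 24.5% and 16.7% in COLO320 DM, and 27.0% and 9.35% in PC3 DM, or 32.7% at −log10 q of at least 5. The clustered minus lone difference was 24.3 points with equal lists in COLO320 DM, and 12.3 and 12.4 points with equal lists and −log10 q of at least 5 in PC3 DM. Covered share in PC3 DM was 0.434% with equal lists. The causes were not tested.

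Leaving out each replicate gave 7 to 18 members called (3 to 7 toward COLO320 DM, 4 to 11 toward PC3 DM) and 510 to 1491 genes. The highest of each came without COLO320 DM ecSE1 replicate 2. Member shares stayed at 43.7 to 45.6% and 46.5 to 48.7%. Deviations of same-numbered libraries had correlations of -0.0449 to 0.0720 in COLO320 DM and -0.0748 to 0.0537 in PC3 DM. Libraries with different numbers had -0.0736 to 0.0646 and -0.0537 to 0.0748. These values cannot show whether same-numbered libraries were prepared together. With a replicate block, 7 members and 604 genes were called, and 0 against the vector. ZNF362 was lost (adjusted p = 0.0604, exact test).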

Other observations

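Genes with other zinc finger family names (ZKSCAN, ZSCAN, ZFP and ZBTB with their numbers) numbered 74 on the same chromosomes. They were picked by symbol alone, which also took in ZBTB8OS, ZFP36L1 and ZFP36L2. In COLO320 DM 30.9% ± 8.73 of them had a peak (SD, n = 18) and in PC3 DM 35.1% ± 7.36 (SD, n = 16). Of these genes, 9 had a peak in at least 33 libraries, 12.2% against 2.40% of all genes. A peak in none was found for 12, 16.2% against 20.3%, and the median was 5 libraries. Between the lines 37 could be tested, 0 were called by Fisher's exact test, beside 7.00% of all genes, and 9 had an unadjusted p under 0.05, beside 26.1% of all genes. Those in at least 33 libraries included ZFP1, ZFP90 and ZSCAN32 on chromosome 16, ZFP69 and ZSCAN20 on chromosome 1, and ZBTB20 on chromosome 3, which is 832789 bp long. These examples were chosen after their values were seen.

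A list of 20 genes of the machinery that writes, reads or removes H3K9 methylation had a median of 4.5 libraries with a peak, close to the 3 of all genes. TRIM28, the co-repressor that KRAB domains bind, and the methyltransferase genes EHMT2 and SUV39H1 had a peak in 0 of 34 libraries. These were 3 of the 20 genes, where 20.3% of all genes had a peak in none. They are short genes, of 6652, 17940 and 13463 bp. ATF7IP, a partner of SETDB1, had one in 15 of 16 libraries of PC3 DM and 18 of 18 of COLO320 DM. Of 12 tested, 2 demethylase genes were called, both more often marked in PC3 DM, beside 5.74% of all genes called in that direction: KDM4B in 0 of 18 and 12 of 16 libraries (adjusted p = 0.00101, Fisher's exact test) and KDM4C in 5 of 18 and 16 of 16 (adjusted p = 0.00183). Both are long genes, of 184486 and 454786 bp.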
